A study of Rattus norvegicus with 18 samples.

Results

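Expression of 8 genes of sugar breakdown was followed through rat femoral fracture. Pgam2, Eno3, and Fbp2 encode the forms of their enzymes found in skeletal muscle, and Aldoa, Ldha, Pkm, Hk1, and Hk2 encode forms that many tissues use. The members were all probe sets of the array annotated to these 8 symbols, 14 of 8799 probe sets. Of the 14, 4 measured muscle forms (1 for Pgam2, 1 for Eno3, and 2 for Fbp2) and 10 measured the others. One of the 10, M54926_at, was annotated to Ldha and to Ldhal1 together, so its signal cannot be given to Ldha alone. Of the 14, 11 were tested, 4 for the muscle forms and 7 for the others. The 3 not tested were control probe sets for Hk1, with signals of 11.6 to 260.3.

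The tissue was the femoral mid-shaft of intact female Sprague-Dawley rats, with its callus, cortical bone, and marrow. The fracture was closed and transverse with a rod in the marrow cavity. Fractured femora were collected at 3 days and at 1, 2, 4, and 6 weeks, and femora of sham-operated rats served as the samples with no fracture. Rats were fractured at 6 weeks (young), 26 weeks (adult), or 52 weeks of age (older). There were 18 arrays, a single one for every age and time, and the RNA on it was a pool of 2 rats. The 3 ages therefore served as the replicates of a time point and the 5 times after fracture as the replicates of an age.

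Glycolysis splits glucose to pyruvate in a chain of enzyme steps, and lactate dehydrogenase turns the pyruvate to lactate when oxygen is short. Several steps have more than one gene, one for muscle and one or more for other cells. Skeletal muscle draws on the pathway for short bursts of work and stores glucose as glycogen, while marrow cells, cartilage, and healing tissue use the general forms.

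The start regions of Pgam2 and Eno3, the muscle forms with a sequence, and of Aldoa, the general form that fell after fracture, are shown. Sequences are from RefSeq, build GRCr8, read 5' to 3' on the strand of the gene, with 250 bases before the annotated start and 30 from it on. Of the 8 symbols, 7 had a sequence, and Fbp2 did not. Capitals mark matches, on either strand, to CAGCTG (the E-box form bound by muscle bHLH factors), to TATAAA, and to the MEF2 motif (bound by a muscle transcription factor family). Pgam2 is on chromosome 14, minus strand, chr14:84897845-84898124, Eno3 is on chromosome 10, plus strand, chr10:55868936-55869215, and the window of Aldoa, the middle of its 3 annotated starts, is on chromosome 1, minus strand, chr1:190837619-190837898.
Pgam2: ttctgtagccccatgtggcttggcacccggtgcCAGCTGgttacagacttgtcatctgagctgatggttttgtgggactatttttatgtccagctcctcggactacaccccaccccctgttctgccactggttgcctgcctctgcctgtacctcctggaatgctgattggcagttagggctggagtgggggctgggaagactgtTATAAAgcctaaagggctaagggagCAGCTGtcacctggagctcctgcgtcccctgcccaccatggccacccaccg
Eno3: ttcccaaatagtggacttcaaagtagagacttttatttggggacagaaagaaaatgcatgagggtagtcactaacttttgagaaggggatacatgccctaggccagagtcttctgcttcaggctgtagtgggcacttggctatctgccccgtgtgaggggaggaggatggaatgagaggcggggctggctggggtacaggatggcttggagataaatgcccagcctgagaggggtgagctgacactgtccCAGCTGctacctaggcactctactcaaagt
Aldoa: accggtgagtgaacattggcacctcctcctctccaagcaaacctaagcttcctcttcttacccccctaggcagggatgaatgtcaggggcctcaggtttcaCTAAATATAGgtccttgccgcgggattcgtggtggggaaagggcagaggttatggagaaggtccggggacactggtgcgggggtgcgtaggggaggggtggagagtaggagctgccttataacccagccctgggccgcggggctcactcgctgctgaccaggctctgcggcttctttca
Pgam2 had 2 matches to CAGCTG and 1 to TATAAA, Eno3 had 1 match to CAGCTG, and the Aldoa window had 1 MEF2 match, CTAAATATAG. Another Aldoa window had 1 match to CAGCTG. No match to CAGCTG, to the MEF2 motif, or to TATAAA was found in the windows of Ldha, Pkm, Hk1, or Hk2. Of 33469 rat promoter windows of this length, 13.9% held CAGCTG, 13.7% TATAAA, and 3.2% the MEF2 motif. The looser E-box CANNTG, which contains CAGCTG, was in 69.7% of windows. The core of the hypoxia response element, ACGTG, had 3 matches in Ldha, 2 of them overlapping, and 1 match each in a window of Aldoa and of Hk1 and in that of Pgam1, the general mutase. It was in 18.2% of all windows.

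At 3 days after fracture the mRNA of all 3 muscle forms fell at all 3 ages, while Pkm, Hk1, Hk2, and the probe set shared by Ldha and Ldhal1 did not pass the test. Of the general forms tested only Aldoa fell. Eno3 fell 9.0-fold, Pgam2 fell 6.04-fold, Fbp2 fell at least 5.01-fold, and Aldoa fell 2.80-fold (limma, 3 arrays against 3). In all, 5 of 11 member probe sets were called lower and 0 higher, 4 of 4 for the muscle forms and 1 of 7 for the others. One of the 4, AJ005046_at of Fbp2, passed the filter (a signal of 200 on 3 arrays) only with the unfractured arrays counted, where it was high, and without it 4 of 10 were called, 3 of 3 for the muscle forms. Over all 4669 probe sets tested, 19.7% were called lower and 44.2% were called in either direction. The median log2 fold change was -2.46 over the 4 probe sets of muscle forms (-2.59 without AJ005046_at), -0.16 over the 7 others, and 0.01 over all tested. A p-value here rests on the spread left over all 18 arrays after the time and age terms. With 1 array per age and time, it gives no separate measure of the spread among rats of the same age.

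Pgam2, the muscle phosphoglycerate mutase, gave signals of 522, 264, and 399 at 3 days in young, adult, and older rats, against 2599, 3893, and 1195 without fracture. The groups did not overlap, nor did those of 51.2% of all probe sets tested. The log2 fold change was -2.59 ± 0.34 (SE), with an adjusted p of 4.22e-05. Eno3, the muscle enolase, gave 525, 449, and 622 at 3 days, against 6311, 8432, and 2011 without fracture. The highest array at 3 days was the older one, which had been the lowest without fracture. The log2 fold change of Eno3 was -3.17 ± 0.42 (SE), with an adjusted p of 4.58e-05.

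Fbp2, the muscle fructose bisphosphatase, runs the phosphofructokinase step in reverse and serves glycogen synthesis from lactate. Its brighter probe set, AJ005046_g_at, gave 99.1, 73.4, and 85.1 at 3 days, all below the floor of 100 that was set before the log, against 689, 992, and 184 without fracture. The log2 fold change of -2.33 ± 0.40 (SE, adjusted p = 0.000364) is therefore a lower bound on the size of the fall. It reached 200 on 9 arrays, 7 of them after fracture, and on 0 of the 6 older arrays. The dimmer probe set, AJ005046_at, gave 15.3, 8.4, and 12.7 at 3 days, against 250.4, 245, and 15.8 without fracture, and lay below the floor on all 6 older arrays. Its log2 fold change was -0.87 ± 0.32 (SE, adjusted p = 0.0356), but it reached a signal of 200 on only 4 arrays, 2 of them unfractured and 2 young at 4 and 6 weeks. That call was lost (adjusted p of 0.0968 to 0.168) without the young or the adult array at either time. It was also lost with a floor of 200 (0.102), with no filter (0.0619), without the age term (0.0886), and with the arrays of the 2 times alone (0.0882).

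**Figure D1:**
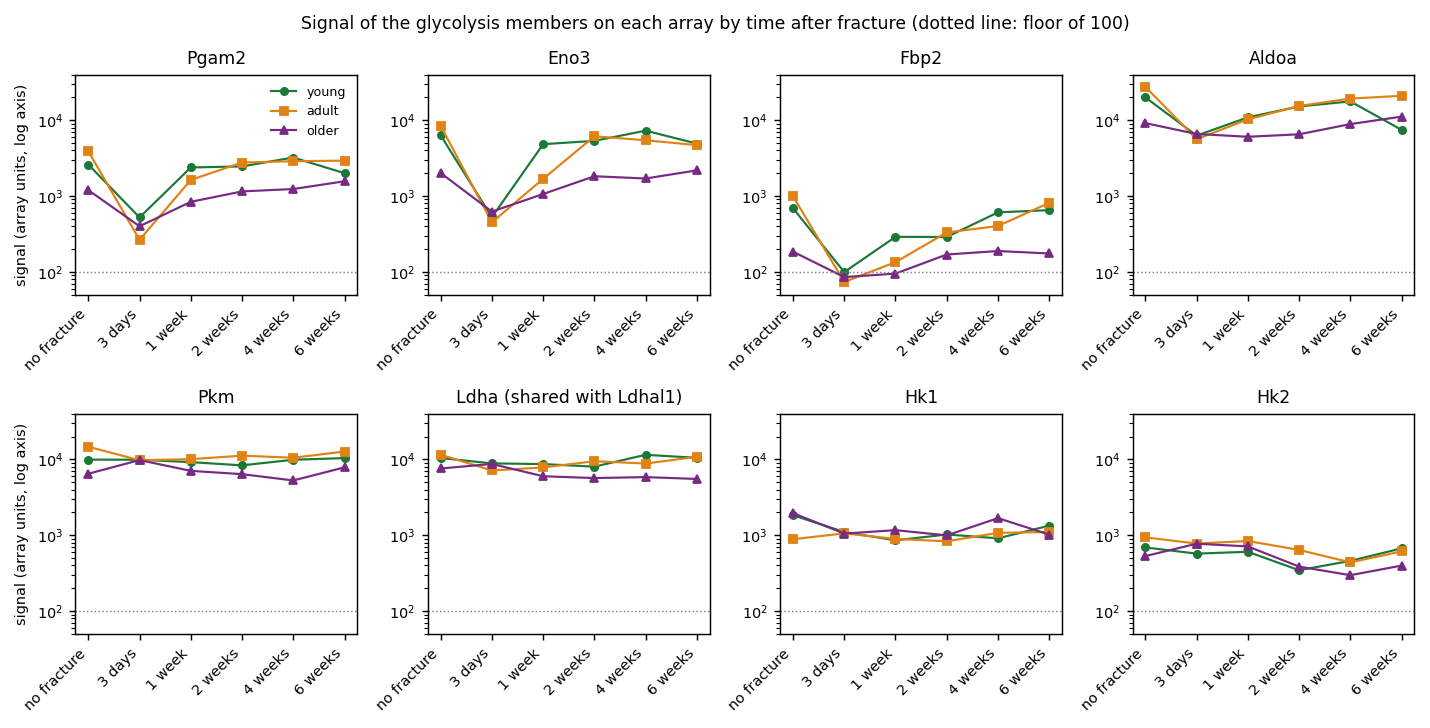
Signal (log axis) of 1 probe set for each of the 8 members on every array, by time after fracture, with 1 line for each age and the floor of 100 as a dotted line. Pgam2, Eno3, and Fbp2 had their lowest signals at 3 days at each age (Eno3 449 to 622), and Pkm at 3 days lay between 9771 and 9917.

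Aldoa, aldolase A, splits fructose bisphosphate and is the aldolase of muscle as well as of many other tissues. Its probe set gave 6250.2, 5607, and 6572 at 3 days in young, adult, and older rats, against 20001, 27542, and 9146 without fracture. The groups did not overlap, nor did those of 51.2% of all probe sets tested, and the log2 fold change was -1.48 ± 0.33 (SE, adjusted p = 0.00235). At 3 days the ages lay close together, whereas without fracture the adult signal was the highest and the older signal the lowest.

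The study's own listing names 3 further probe sets as aldolase A, which the platform annotation used here did not cover and which are in none of the counts. Of these, 2 fell at 3 days as well. M12919mRNA#2_at averaged 7728 ± 1354 at 3 days and 19303 ± 7335 without fracture (SD, n = 3 each), a log2 fold change of -1.26 ± 0.26 (SE, limma adjusted p = 0.0012). M12919mRNA#2_g_at had -0.76 ± 0.20 (SE, adjusted p = 0.00744). The third of them, U20643mRNA#2_f_at, had 0.10 ± 0.27 (SE, adjusted p = 0.783).

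Pkm, the pyruvate kinase of muscle and most other tissues, gave 9917, 9771, and 9816 at 3 days, against 9957, 14723, and 6486 without fracture. The 3 ages were nearly level at 3 days and lay apart without fracture. The log2 fold change was 0.00, with a 95% interval of -0.42 to 0.42. The probe set shared by Ldha and Ldhal1 gave 8879, 7165, and 8724 at 3 days, against 10459.6, 11525, and 7604 without fracture, with a log2 fold change of -0.24 and a 95% interval of -0.69 to 0.21. Ldha encodes the lactate dehydrogenase subunit that is common in muscle and in tissue low in oxygen.

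The hexokinases trap glucose in the cell at the first step. Hk1 is the form of most tissues, and Hk2 is the insulin-responsive form of muscle and fat that many other cells also use. The brighter Hk1 probe set, rc_AI012593_at, gave 1106, 1059, and 1054 at 3 days, against 1838, 888, and 1961 without fracture. The adult array without fracture stood apart from the other two and overlapped the 3 days arrays. The log2 fold change was -0.46 ± 0.26 (SE, adjusted p = 0.165), and without that adult array it was -0.77 with an adjusted p of 0.0265. For Hk2, D26393exon_s_at gave 573, 779, and 774 at 3 days, against 691, 938, and 532 without fracture, a log2 fold change of 0.00 with a 95% interval of -0.52 to 0.52. The second Hk2 probe set, M68971_at, lay between 293 and 516 on all 18 arrays, and the second Hk1 probe set, U27319exon_at, between 72.3 and 453.

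Skeletal muscle markers moved with the muscle forms. Of 20 listed muscle genes, 15 were on the array and all 15 were tested, and 13 of the 15 fell at 3 days with a median log2 fold change of -1.58. The sum of their signals was 58772 to 89669 at 3 days, against 121016 to 290066 without fracture, and no muscle marker was below the floor on all arrays. In such mixed tissue fewer cells of a type and less RNA per cell cannot be told apart. Markers of red cells and of neutrophils fell too, 5 of 5 tested in each list, and their summed signals at 3 days were 7943 to 18294 and 1354 to 15058, against 75470.0 to 109589 and 44220.3 to 85174 without fracture. Adipocyte markers fell in 3 of 5, with sums of 5405 to 6011 at 3 days, against 8787 to 12184 without fracture. Fibrous matrix genes rose in 10 of 12 tested, with sums of 129947 to 160228 at 3 days, against 20926 to 92419 without fracture. Of macrophage markers 3 of 4 rose and 1 fell, with sums of 13246 to 16141 at 3 days, against 9161 to 20925 without fracture. Of cartilage markers 2 of 4 rose, with sums of 2264 to 3579 at 3 days, against 206 to 1219 without fracture, and Col9a1 was below the floor on all arrays. Of oxygen-sensing genes 4 of 7 rose and 2 fell, with sums of 4650 to 5233 at 3 days, against 3549 to 4338 without fracture. The part of any of these cell types in the changes of the glycolysis genes was not tested.

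Over the 18 arrays the mean profile of the muscle forms had a Pearson r of 0.964 with the mean profile of the muscle markers (0.977 without AJ005046_at), and that of the 7 others had an r of 0.639. For single probe sets r was 0.974 for Pgam2, 0.969 for Eno3, 0.893 for AJ005046_g_at and 0.659 for AJ005046_at of Fbp2, and 0.846 for Aldoa. It was 0.607 for the probe set shared by Ldha and Ldhal1, 0.476 for Pkm, and from -0.223 to 0.577 for the 4 probe sets of Hk1 and Hk2. These are descriptions and not tests, since the probe sets on an array share its RNA and scaling. Set against the muscle markers of the same age, Pgam2 at 3 days changed by a further -0.81 ± 0.28 and Eno3 by a further -1.38 ± 0.40 on the log2 scale (SD, n = 3 ages), below the markers at all 3 ages. The 2 probe sets of Fbp2, both set to the floor at 3 days, differed in sign. AJ005046_g_at lay below the markers by -0.54 ± 0.41, and AJ005046_at lay above them by 0.915 ± 0.553. Aldoa lay above the markers by 0.30 ± 0.21 and Pkm by 1.79 ± 0.46.

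**Figure D2:**
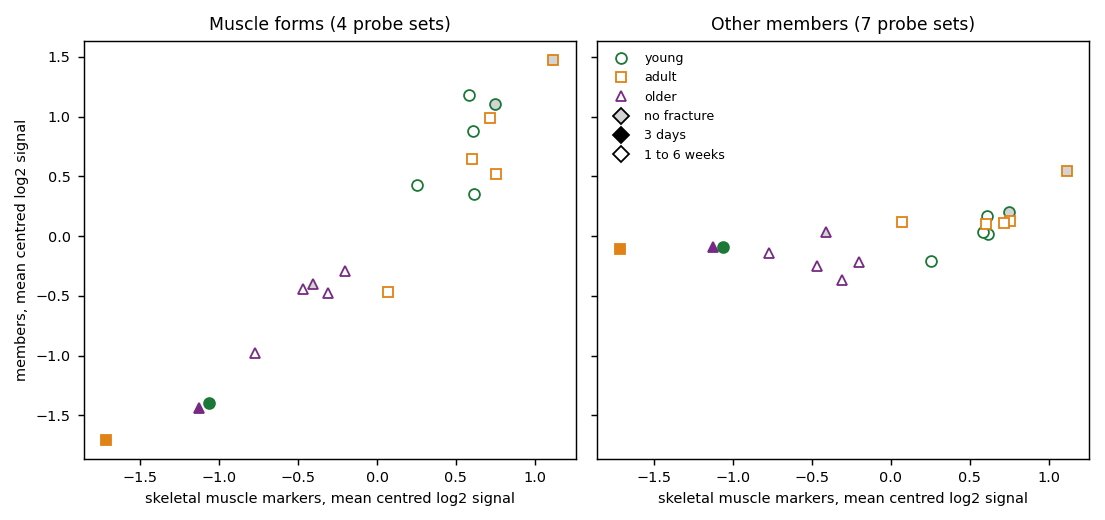
Mean centred log2 signal of the 4 muscle form probe sets (left) and of the 7 other members (right) against that of the 15 skeletal muscle markers, 1 point for each of the 18 arrays. The muscle forms ran with the markers (r = 0.964) from -1.70 on the adult 3 days array to 1.48 on the adult array without fracture, while the other members (r = 0.639) stayed between -0.36 and 0.55.

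Other genes of the pathway moved in both directions in the same comparison. Of 30 listed genes, 16 were tested, and at 3 days 8 fell and 5 rose. Slc2a3, Pfkfb4, and Pgk1 were tested and not called. Over all probe sets tested 24.5% rose. The 8 that fell were Pfkfb1 (a muscle and liver regulator of phosphofructokinase, at least 7.02-fold, all 3 arrays below the floor), Slc2a4 (the insulin-responsive glucose transporter, 6.07-fold), Ldhb (the heart type lactate dehydrogenase subunit, 5.78-fold), Pygm (muscle glycogen phosphorylase, 5.72-fold), Pfkm (muscle phosphofructokinase, 5.0-fold), Pgm1 (phosphoglucomutase, 3.10-fold), and the lactate carriers Slc16a1 (2.13-fold) and Slc16a3 (2.08-fold). The 5 that rose were Slc2a1 (the glucose transporter of most cells, 3.8-fold), Pfkl and Pfkp (the liver and platelet phosphofructokinases, 2.20-fold and 1.92-fold), Eno1 (the general enolase, 1.61-fold), and Pgam1 (the general mutase, 1.55-fold). Pfkp was higher at 3 days in young and adult rats only. In older rats it gave 509 at 3 days, against 593 without fracture.

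The general partners of 2 muscle forms could be set beside them. Pgam1 averaged 5804 ± 272 at 3 days and 3756 ± 353 without fracture (SD, n = 3 each), with no overlap and an adjusted p of 0.00569 by limma. Eno1 averaged 10659 ± 707 at 3 days and 6797 ± 1951 without fracture (SD, n = 3 each), also with no overlap (adjusted p = 0.0125 by limma). Of all probe sets tested, 51.2% did not overlap in this comparison. The log2 ratio of Pgam2 to Pgam1 changed by -3.23 ± 1.37 and that of Eno3 to Eno1 by -3.86 ± 1.68 (SD, n = 3 ages), lower at 3 of 3 ages. The ratio of Pfkm to Pfkl changed by -3.46 ± 1.91 and that of Slc2a4 to Slc2a1 by -4.53 ± 1.90. An exact two-sided permutation test of 3 arrays against 3 gave p = 0.1 for each of these 4 ratios at 3 days, the smallest that test allows, and 0.444 after adjustment over the 20 ratios and times. An exact two-sided permutation test with arrays exchanged only within an age gave p = 0.25 for each, again the smallest it allows with 3 ages. Neither test could pass the threshold with 3 ages. At 2 weeks the ratio of Slc2a4 to Slc2a1 changed by -2.36 ± 0.33, a smaller spread over the ages than at 3 days.

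**Figure D3:**
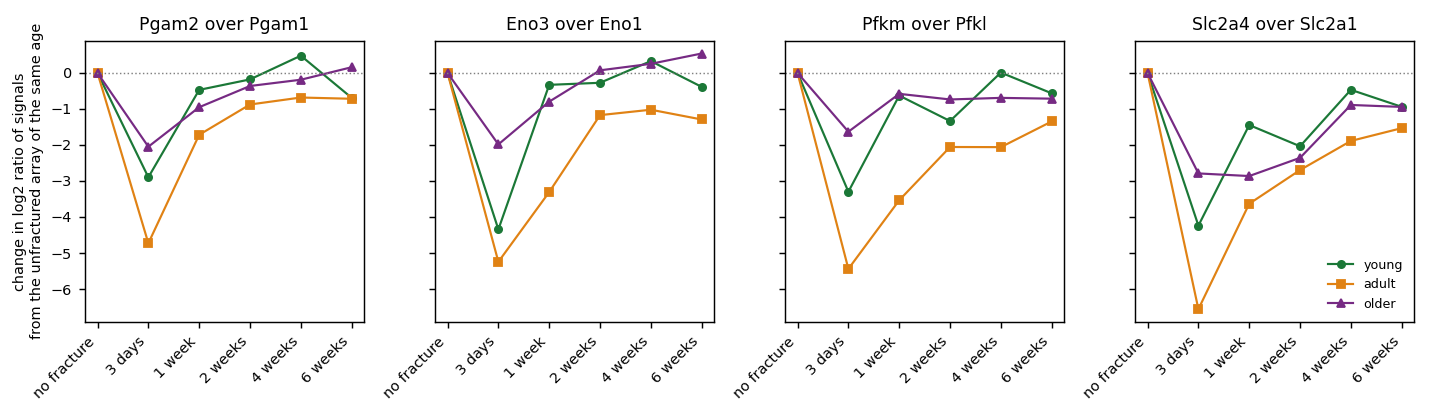
Change in the log2 ratio of the muscle form to the general form for 4 enzyme or transporter pairs, from the unfractured array of the same age, by time after fracture and with 1 line for each age. All 4 ratios were lowest at 3 days in young and adult rats, and the mean changes at 3 days were -3.23 for Pgam2 over Pgam1 and -3.86 for Eno3 over Eno1.

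At 1 week the muscle forms were partly back, to a different degree at each age. Of 11 member probe sets 3 were called lower and 0 higher, against 10.5% lower and 14.3% higher over all tested. They were AJ005046_g_at of Fbp2 (-1.67 ± 0.40, adjusted p = 0.00649), Eno3 (-1.21 ± 0.42, adjusted p = 0.0439), and Aldoa (-0.97 ± 0.33, adjusted p = 0.044; log2 fold change ± SE, limma). Pgam2 had -0.63 ± 0.34 (SE, adjusted p = 0.186). Pgam2 stood at 91.5% of the unfractured signal of the same age in young, 41.8% in adult, and 70.1% in older rats. The log2 change of Eno3 at each age was -0.39, -2.32, and -0.92. Relative to the unfractured array of the same age, the adult array was the lowest of the 3 ages for both. In signal the older array was the lowest. It gave 837.5 for Pgam2 and 1062 for Eno3, against 1627.5 and 1684.5 on the adult array. The calls of Eno3 and Aldoa were near the threshold. That of Eno3 was lost on leaving out any of 11 of the 18 arrays (adjusted p up to 0.217, without the adult 1 week array) and that of Aldoa any of 10 (up to 0.161, without the adult unfractured array), while that of Fbp2 passed without each array in turn. Muscle markers at 1 week had a median log2 fold change of -0.50, with 1 of 15 called lower.

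At 2, 4, and 6 weeks 0 of 11 member probe sets were called by limma, against 21.1%, 6.49%, and 4.39% of all tested in either direction. At an unadjusted p below 0.05 by limma there were 4, 1, and 0, and the share of all probe sets at that p was not counted. By the methods' t-test, run as an alternative, 0 members had such a p at each time. Of all 4669 probe sets, 898, 498, and 377 did. By 6 weeks the log2 fold changes against no fracture were -0.14 ± 0.34 for Pgam2, -0.37 ± 0.42 for Eno3, -0.15 ± 0.40 for AJ005046_g_at of Fbp2, and -0.51 ± 0.33 for Aldoa (SE). The member nearest a call was D26393exon_s_at of Hk2 at 4 weeks. It gave 459.7, 439.5, and 298 in young, adult, and older rats, against 691, 938, and 532 without fracture, with no overlap and a log2 fold change of -0.84 ± 0.24 (SE, adjusted p = 0.0512 by limma). The second Hk2 probe set, M68971_at, had 0.23 ± 0.19 there (SE, adjusted p = 0.58), and the 2 therefore differed in sign.

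The rise after 3 days was tested as 6 weeks against 3 days. Of 11 member probe sets 4 rose and 0 fell, 3 of 4 for the muscle forms and 1 of 7 for the others, against 17.5% risen and 18.7% fallen over all tested. Pgam2 gave 1999, 2925, and 1564 at 6 weeks, against 522, 264, and 399 at 3 days, and rose 5.50-fold (log2 2.46 ± 0.34 SE, adjusted p = 0.000177 by limma). Eno3 gave 4911, 4686, and 2178 at 6 weeks, against 525, 449, and 622 at 3 days, and rose 6.99-fold (2.81 ± 0.42 SE, adjusted p = 0.000326). AJ005046_g_at of Fbp2 gave 651, 813, and 174 at 6 weeks and rose at least 4.52-fold from signals that were all below the floor (adjusted p = 0.00125). None of these groups overlapped, nor did those of 49.5% of all probe sets tested.

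Aldoa rose 1.96-fold between 3 days and 6 weeks (log2 0.97 ± 0.33 SE, adjusted p = 0.0332 by limma). It gave 7453, 20949, and 11133 at 6 weeks, against 6250.2, 5607, and 6572 at 3 days. The young array at 6 weeks was the lowest of the 3, and on that array the 5' to 3' ratio of Gapdh, a sign of RNA integrity, was 0.257, against 0.650 to 0.913 on the other arrays. On the same array the other aldolase A probe sets gave 16115 (M12919mRNA#2_at) and 26656 (M12919mRNA#2_g_at), so the probe sets disagreed there, and the part of RNA integrity was not tested. The call of Aldoa was lost without the adult or the young 3 days array or the adult or the older 6 weeks array (adjusted p of 0.0843 to 0.188), and also with no filter (0.106), without the age term (0.113), and with the arrays of the 2 times alone (0.0703). Of the other pathway genes 7 rose and 2 fell in this comparison, and those that fell were Slc2a1 and Eno1.

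**Figure D4:**
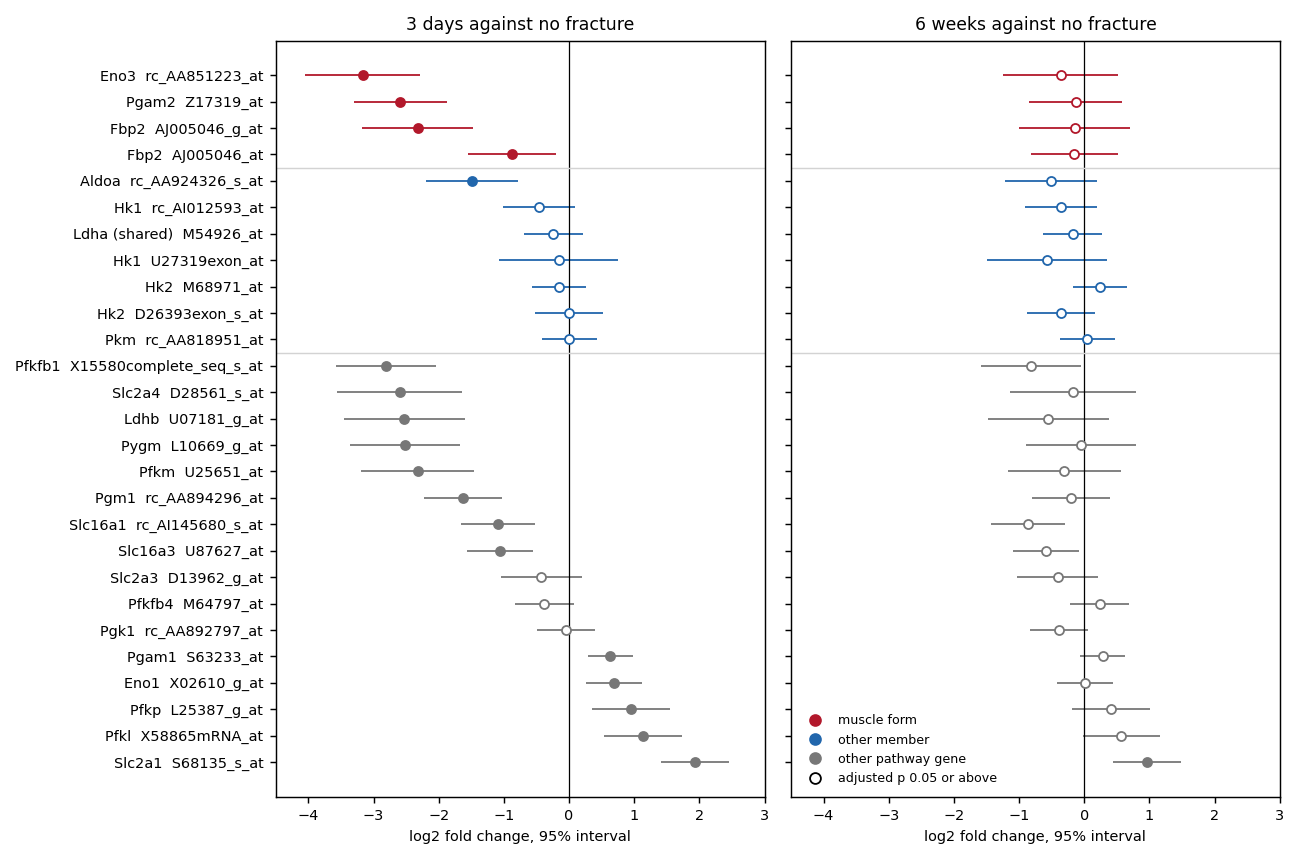
Log2 fold change with its 95% interval for the 11 member probe sets tested and for 16 other genes of the pathway, at 3 days (left) and at 6 weeks (right) against no fracture, filled where the adjusted p was below 0.05. At 3 days the muscle forms lay at -3.17 to -0.87, and at 6 weeks the only filled point was Slc2a1 at 0.97.

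Between older and young rats over the 5 times after fracture 0 of 11 member probe sets passed the test, and 0.150% of all tested did. Of the members 6 had an unadjusted p below 0.05 by limma, all lower in older rats, and the 3 lowest adjusted p were those of muscle forms. The share of all probe sets at that unadjusted limma p was not counted. By the methods' t-test, run as an alternative, 2 members and 441 of all 4669 probe sets had an unadjusted p below 0.05. One of the 6, AJ005046_at of Fbp2, was below the floor on all 6 older arrays. It passed the filter only with the young arrays of 4 and 6 weeks counted, where it was high. The fitted difference of Eno3 was 2.55-fold (log2 -1.35 ± 0.31 SE, adjusted p = 0.0575 by limma), AJ005046_g_at of Fbp2 2.26-fold (adjusted p = 0.0631), and Pgam2 1.93-fold (adjusted p = 0.0657). The median log2 difference was -1.06 over the 4 muscle form probe sets (-1.18 without AJ005046_at), -0.11 over the 7 others, and 0.05 over all tested. Pgam2 ran from 399 to 1564 with a median of 1149 in older rats after fracture, against 522 to 3218 with a median of 2378 in young rats. Eno3 ran from 622 to 2178 with a median of 1701 in older rats, against 525 to 7267 with a median of 4911 in young rats. The ranges overlapped.

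The overlap came with the 3 days arrays, where the ages met. The log2 difference between older and young rats in Eno3 was 0.24 at 3 days and -2.18, -1.55, -2.095, and -1.17 at 1, 2, 4, and 6 weeks. Without the older 3 days array 5 member probe sets were called lower, Eno3 (adjusted p = 0.00263), Pgam2, AJ005046_g_at of Fbp2, and the probe set shared by Ldha and Ldhal1 (0.00698 each), and Pkm (0.0219). Without the young 3 days array 2 were called, Eno3 (0.0256) and AJ005046_g_at of Fbp2 (0.0294), and without the adult 3 days array 1, Pgam2 (0.0472). The share of all probe sets called in these runs was not counted, so the member counts have no background here.

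**Figure D5:**
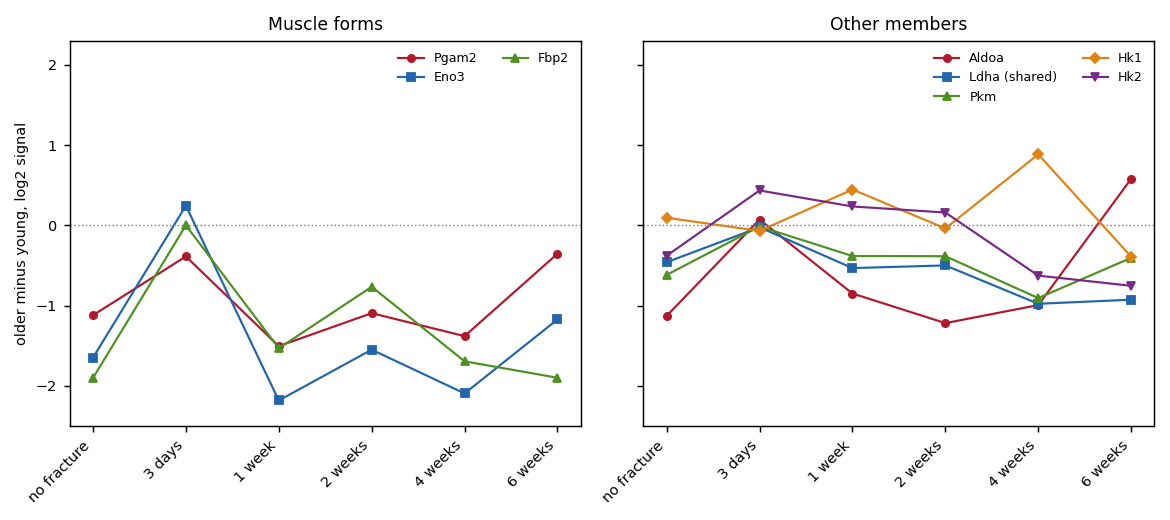
Log2 signal in older rats minus that in young rats (floor of 100) for the 3 muscle forms (left) and 5 other members (right), without fracture and at each time after it. Eno3 was at -1.65 without fracture, 0.24 at 3 days, and -2.18 at 1 week, and Pkm was at -0.62, -0.02, and -0.38.

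The older arrays were also low before fracture. Without fracture Eno3 was 2011 in the older and 6311 in the young array, Pgam2 1195 and 2599, and AJ005046_g_at of Fbp2 184 and 689. The change of this age difference upon fracture (older minus young with fracture, less older minus young with none) was 0.30 ± 0.76 for Eno3, 0.18 ± 0.60 for Pgam2, and 0.72 ± 0.70 for Fbp2 (log2, SE), and 0 of 11 members were called, against 2.55% of all tested. This comparison rests on 1 unfractured array per age and 8 residual degrees of freedom, and its wide errors do not show that the differences were alike. The summed signal of the muscle markers was also lower in older rats, 121016 in the older and 236157 in the young array without fracture and 129579 and 229577 at 6 weeks, with 1 of 15 markers called lower after fracture. The part of muscle in the age difference was not tested.

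Within the later period, 4 and 6 weeks, 3 of 11 member probe sets were called lower in older than in young rats, against 0.921% lower and 2.81% in either direction over all tested. Eno3 gave 1701 and 2178 in older rats, against 7267 and 4911 in young rats (log2 -1.63 ± 0.36 SE, adjusted p = 0.0445 by limma). AJ005046_g_at of Fbp2 gave 188 and 174 in older rats, against 608 and 651 in young rats (-1.80 ± 0.38 SE, adjusted p = 0.0413). This probe set was below 200 on all 6 older arrays and passed the filter through young and adult arrays, 7 of them outside the young arrays compared here. The probe set shared by Ldha and Ldhal1 gave 5853 and 5530.4 in older rats, against 11531 and 10513 in young rats (-0.95 ± 0.21 SE, adjusted p = 0.0428). None of the 3 overlapped between ages, nor did 49.3% of all probe sets tested. Pgam2 gave 1235 and 1564 in older rats, against 3218 and 1999 in young rats (-0.87 ± 0.28 SE, adjusted p = 0.108). These are 2 arrays against 2 with 4 residual degrees of freedom, and the calls were not stable. Of the 12 arrays in the fit, 7 left 0 of 11 called when omitted, among them all 4 arrays compared, with adjusted p of 0.145 or more for the 3 without the young 6 weeks array, on which the 5' to 3' ratio of Gapdh was 0.257. With a floor of 200 or with no filter 0 were called as well. With a floor of 20 there were 4, and the call gained was AJ005046_at of Fbp2 (adjusted p = 0.0489 by limma). That probe set passed the filter only with the young arrays of 4 and 6 weeks counted, where it was high. In the same comparison 4 of 15 skeletal muscle markers were lower in older rats, with sums of 108488 and 129579 in older rats, against 201865 and 229577 in young rats. All 4 cartilage markers tested were higher (median log2 difference 3.06), with sums of 10797 and 7464 in older rats, against 1067 and 362 in young rats. Of fibrous matrix genes 3 of 12 were higher, and of neutrophil markers 1 of 5 was lower. The part of these tissues and of RNA integrity in the 3 calls was not tested. At 1 and 2 weeks 0 of 11 were called, against 0.514% of all tested.

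Adult and young rats did not differ in any member that passed the test (0 of 11, and 0 of all 4669 tested, by limma), and 0 members had an unadjusted p below 0.05. Between older and adult rats after fracture 1 of 11 members was called, Pkm, which was lower in older rats, against 1.35% called lower and 3.73% in either direction over all tested. Pkm ran from 5287 to 9816 with a median of 7074 in older rats, against 9771 to 12731 with a median of 10540.2 in adult rats, overlapping only through the older 3 days array. The log2 difference was -0.60 ± 0.14 (SE, adjusted p = 0.0392). That call was lost on leaving out any of 9 of the 15 arrays (adjusted p of 0.0521 to 0.139) and with no filter (0.127). Without the older 3 days array 6 members were called and without the adult 3 days array 5, all lower in older rats. The share of all probe sets called without either array was not counted. Without fracture Pkm was 6486 in the older and 14723 in the adult array.

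The genes most like the muscle forms over the 18 arrays, by Pearson r with their mean profile, were Pygm (0.979), the fast troponin I gene Tnni2 (0.974), Hspb6 (a small heat shock protein of muscle, 0.974), Tpm1 (tropomyosin, 0.968), Cox8b (a cytochrome oxidase subunit of heart and muscle, 0.968), Ldb3 (a Z-disc protein, 0.968), Ckmt2 (mitochondrial creatine kinase of muscle, 0.966), and Got1 (0.963). Aldoa was most like Ppp1r1a (0.938) and Cacna1s (0.923), the muscle calcium channel. The probe set shared by Ldha and Ldhal1 was most like Atp5f1b (0.924), a subunit of ATP synthase, and Mrpl38 (0.892). Pkm was most like Tufm (0.912), a mitochondrial translation factor, and Trim63 (0.885). The brighter Hk1 probe set, rc_AI012593_at, was most like Cd52 (0.87), a leukocyte surface antigen, and Arrb2 (0.86). The brighter Hk2 probe set, D26393exon_s_at, was most like Cebpb (0.852), a transcription factor, and Hsp90ab1 (0.826). The 2 probe sets of each hexokinase did not run together (r = -0.098 for Hk1 and 0.09 for Hk2), so these neighbours are those of 1 probe set. Among the members, Pgam2 and Eno3 had an r of 0.971 with each other and of 0.861 and 0.851 with Aldoa, and of 0.343 and 0.375 with Pkm. Each r is a description, since the probe sets on an array share its RNA and scaling.

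The study's listing names 2 probe sets as hexokinase II that the annotation used here did not cover, and they are in none of the counts. S56464mRNA_g_at gave 206 and 59.2 in older rats at 4 and 6 weeks, against 505 and 487 in young rats. The signal of 59.2 was set to the floor of 100, so the log2 difference of -1.79 ± 0.31 (SE, limma adjusted p = 0.0223) is a lower bound on the size of the difference. It rests on 2 arrays against 2 with 4 residual degrees of freedom. Among them is the young 6 weeks array, with a 5' to 3' ratio of Gapdh of 0.257. Alternative processing was not run for this probe set. S56464mRNA_at lay below the floor on 4 arrays, with a difference of -0.59 ± 0.52 in the same comparison (adjusted p = 0.541). The Hk2 probe sets of the counts had -0.69 ± 0.24 (D26393exon_s_at) and -0.14 ± 0.27 (M68971_at) there, with adjusted p of 0.135 and 0.805.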

How the data were processed

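Femoral mid-shaft RNA was hybridized to 18 Affymetrix rat arrays. The authors computed signal intensities with Microarray Suite 5.0, with scaling to an average of 500 per array, and deposited these. Detection calls and the study's other array series were not used here. The number of arrays limits the precision.

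Symbols came from the platform annotation, updated by gene identifier. Signals below 100 were set to 100 before log2. Of 8799 probe sets, 59 controls were left out, and 4669 that reached 200 on 3 or more arrays were tested by limma 3.58.1 in R 4.3.3 (trend, two-sided), with adjustment by Benjamini and Hochberg over all 4669 and a threshold of 0.05. Times were compared on 18 arrays with age as a term, and ages on the 15 fractured arrays with a time term. Fold changes come from mean log2 signals. A profile is a mean of log2 signals centred on each probe set's mean.

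The members and gene lists were chosen with earlier results of these data known. Named are all member probe sets and the pathway list, with values for those past the threshold or paired by reaction. The pathway list used 1 probe set per gene, the brightest tested. Also named are the 8 genes most like the muscle forms and the 2 highest-ranked of 5 for each other member. Alternatives changed the floor (20 or 200), the filter (none or 500), the normalization (quantile or equal medians), the moderation (robust), the terms (no age or time), the arrays (those compared alone, or each left out), and the test (the methods' t-test). The fit was checked on simulated data. Python 3.11.15 and matplotlib 3.10.9 drew the figures.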

Additional observations from a re-analysis of the deposited data

Results flagged for a closer look

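The dimmer Hk1 probe set, U27319exon_at, moved in opposite directions by age from its single unfractured arrays. It gave 304, 279, 139.7, 169.5, and 293 at 3 days and 1, 2, 4, and 6 weeks in young rats, all above 134 without fracture. In adult rats it gave 268, 315, 248, 215, and 72.3, all below 453 without fracture, and in older rats 197, 317, 310.1, 229, and 232, all below 369.7 without fracture. The mean log2 change over the 5 times, adult minus young, was -1.84, and older minus young it was -1.306. The difference between adult and young rats was not tested. That between older and young rats had an adjusted p of 0.378 by limma. Each direction rests on 1 unfractured array, and the brighter Hk1 probe set, rc_AI012593_at, had another pattern. It ran from 858 to 1340 after fracture in young rats, below 1838 without fracture. In older rats it ran from 998 to 1683, below 1961 without fracture. In adult rats it ran from 833 to 1104, on both sides of 888 without fracture.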

How the results depend on the processing

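Of 2654 alternative values for single member probe sets, 2518 kept their side of the threshold, and 94 lost and 42 gained the call. Among values called in the main or the alternative run, 0 changed sign. Changes of sign among values called in neither run were not counted. At 3 days 5 member probe sets were called, 4 to 5 with each array left out and 1 by the methods' t-test. With a floor of 200, no filter, no age term, or only the arrays of the 2 groups the call of AJ005046_at of Fbp2 was lost. At 1 week the 3 calls became 1 with a floor of 200, with no filter, or with only the arrays of the 2 groups, and 0 without the age term or by the methods' t-test, and 1 to 4 with each array left out. At 2 weeks 0 became 1 with the filter at 500, and 0 to 2 with arrays left out. At 4 weeks 0 became 1 (D26393exon_s_at of Hk2) with a floor of 20, a filter at 500, quantile normalization, equal medians, or robust moderation, and 0 to 1 with arrays left out. At 6 weeks the count was 0 in every alternative run. For 6 weeks against 3 days 4 became 2 by the methods' t-test and 3 to 4 with arrays left out, the call of Aldoa was also lost with no filter, no age term, or only the arrays of the 2 groups, and that of AJ005046_at was gained with a floor of 20 (adjusted p = 0.0409). For older against young rats 0 became 0 to 5 with arrays left out. Alternatives for 3 further comparisons were chosen after seeing the data. For older against adult rats 1 call became 0 with no filter and 0 to 6 with arrays left out. For older against young rats at 1 and 2 weeks 0 became 0 to 2 with arrays left out, and at 4 and 6 weeks 3 became 0 with a floor of 200 or no filter and 0 to 4 with arrays left out, where a lone array is assumed to vary like the others. The call gained at 4 and 6 weeks was that of AJ005046_at, which passed the filter only with the young arrays compared there. The cause of these shifts was not tested. Apart from the methods' t-test, the share of all probe sets called in the alternative runs was not counted. The methods' t-test, on the same values, called 848 of 4669 probe sets at 3 days and 1 at 1 week after adjustment.

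Where 1 array is left out of a time with 3, or a period has 2 arrays per age, few degrees of freedom remain. Fbp2 lay at or below the floor at 3 days, so its fall is bounded only from one side. All 18 arrays carry the same series number in their labels, so series could not serve as a block. Arrays of the same age were set together through the age term.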
